A study of Bos taurus with 2 samples.

Results

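The last 2 Mb of each of the 29 cattle autosomes were described in bone DNA methylation data. Members were 1 kb windows of chromosomes 1 to 29 whose CpG sites lay within 2 Mb of the last CpG position listed for their chromosome, with at least 20 calls in each sample. In all, 53160 windows passed, of 57883 end windows that held a CpG site (91.8%), and 4723 were lost for too few calls. They made up 2.54% of the 2090238 autosomal windows with enough calls and held 6.06% of their CpG sites. The remaining 2037050 windows of the same chromosomes, called the rest below, served for comparison, and 28 windows that straddled the 2 Mb limit were placed in neither.

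The series held 2 bone samples, Bone_1 and Bone_2, both from female Holstein cattle and with no treatment, age or cell fraction given in the labels. Neither the labels, the methods nor the study's list of WGBS samples say whether they came from 1 animal or from 2, and the names of the deposited counts share their first number, so libraries of the same animal cannot be told apart from libraries of different animals. Every SD therefore describes the spread between these samples, which may be technical. DNA was sequenced after bisulfite treatment (whole-genome bisulfite sequencing, WGBS), in which an unmethylated cytosine is read as a thymine and a methylated one stays a cytosine, so that each read gives a methylated or an unmethylated call at every CpG it covers. The level of a window is its methylated calls over all its calls, in percent, with both strands of a CpG summed. Whole bone can hold bone, marrow, fat and vessel cells. The tissue label was not checked against marker genes, because the gene annotation at hand is of another genome build than either one named for the counts.

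In mammalian somatic cells most CpG sites are methylated by the DNA methyltransferases. Because methylated cytosine mutates readily to thymine, CpG sites have become rare over most of the genome. CpG islands, stretches where CpG sites stayed dense, usually lie at gene promoters and are usually unmethylated. Cattle autosomes are acrocentric, with the centromere at the start of the numbered sequence, so the last positions lie on the side of the telomere. Regions next to telomeres tend to be rich in G and C, in genes and in CpG sites in mammals. Dense CpG sites outside promoters, such as those in gene bodies and in tandem repeats, are often methylated.

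The end windows were much richer in CpG sites than the rest, with 28.1 CpG sites per window against 11.4, a ratio of 2.47. The ratio was above 1 on 28 of 29 chromosomes, with a median of 2.60. It was highest on chromosome 17, at 3.97, and lowest on chromosome 27, at 0.975. Windows with at least 60 CpG sites, termed CpG-dense here, made up 6.57% of the end windows and 0.860% of the rest, which is 60.2 and 7.21 such windows per Mb. The RefSeq gene table of ARS-UCD2.0, measured from its own last annotated position, listed 964 protein-coding genes in the last 2 Mb of the autosomes, or 16.6 per Mb against 7.95 per Mb elsewhere. Gene density was higher at the end on 24 of 29 chromosomes, and ranged from 0.5 genes per Mb on chromosome 27 to 47 per Mb on chromosome 17. Across the 29 chromosomes, CpG sites per end window and the number of genes at the end went together (Spearman's rho 0.72, a description over chromosomes that share both libraries).

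The last named protein-coding genes of this table give an idea of what lies there. Genes with symbols starting with LOC were left out, so such genes may lie beyond them. Chromosome 5 ended with SHANK3, a scaffold protein of synapses, followed by ACR, the acrosomal protease of sperm, and RABL2B. Chromosome 16 ended with TNNI1, LAD1 and TNNT2, of which TNNI1 and TNNT2 encode troponins of muscle. Chromosome 23 ended with EXOC2, the transcription factor gene IRF4 and the phosphatase gene DUSP22, and chromosome 25 with the growth factor gene PDGFA, FOXL3 and FAM20C, a kinase of secreted proteins that is needed for bone and tooth mineralization. Chromosomes 9 and 15 both ended with olfactory receptor genes. Since these positions come from another build, no methylation level was assigned to any gene.

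Depth per CpG site was higher at the ends than elsewhere in Bone_1 and lower in Bone_2. The end windows held 31768285 calls in Bone_1 and 14199405 in Bone_2, or 21.3 and 9.50 calls per CpG site, against 17.7 and 15.0 in the rest. This contrast was small once the rest was weighted to the CpG numbers of the ends. The mean window then had 598 calls at the ends and 575 in the rest in Bone_1, and 267 and 276 in Bone_2. The median end window had 419 calls in Bone_1 and 249 in Bone_2. Intervals given below are 95% Wilson intervals, except that a count of 0 is given with the share that 3 calls would make, and both cover counting error only, since reads carried no molecular identifiers and neighbouring CpG sites are often called from the same read. Fisher's tests below are bound by this too.

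Taken over all windows, the ends were methylated to about the same level as the rest, despite their higher CpG number. The mean end window was at 76.4% in Bone_1 and 60.5% in Bone_2 (68.5% ± 11.3, SD, n = 2), and the mean of the rest was at 76.0% and 59.4% (67.7% ± 11.7, SD, n = 2). The median end window was at 81.7% in Bone_1 and 62.8% in Bone_2. Both samples thus placed the end slightly above the rest, by less than the difference between the samples. Of the end windows, 3.32% in Bone_1 and 3.48% in Bone_2 were under 20% methylated, and 56.2% and 7.90% were over 80%.

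At equal CpG number the ends were more methylated than the rest in both samples. For this the rest was weighted to the numbers of CpG sites found at the end of the same chromosome. The weighted rest was at 69.3% in Bone_1 and 55.1% in Bone_2, so the ends exceeded it by 7.13 percentage points in Bone_1 and by 5.44 in Bone_2 (6.28 ± 1.19, SD, n = 2). The share of windows under 20% was 3.32% at the ends against 12.2% in the weighted rest in Bone_1, and 3.48% against 12.1% in Bone_2, a difference of -8.73 ± 0.194 percentage points (SD, n = 2). The share over 80% was 56.2% against 50.1% in Bone_1 and 7.90% against 6.16% in Bone_2, a difference of 3.93 ± 3.08 (SD, n = 2). All of these differences had the same sign in both samples. With 2 samples, however, the two-sided exact sign-flip permutation test cannot go below p = 0.5, and it gave p = 0.5 for each of the 3, so none could pass a threshold of 0.05. Without weighting by CpG number, the share under 20% was higher at the ends than in the rest, by 1.54 percentage points.

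The difference was carried by windows with many CpG sites. With 1 to 9 CpG sites the ends differed from the weighted rest by -0.47 percentage points in Bone_1 and -0.72 in Bone_2, and with 10 to 19 by 0.20 and 0.19. With 20 to 39 CpG sites the ends were higher by 3.98 and 2.91. With 40 to 59 they were higher by 20.4 and 15.4. In CpG-dense windows the ends were at 56.1% against 22.0% in Bone_1 and at 47.5% against 19.6% in Bone_2, differences of 34.0 and 27.9 percentage points. The step from sparse to dense windows was therefore seen in both samples, and was larger in Bone_1 in each class from 20 CpG sites upwards.

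**Figure D1:**
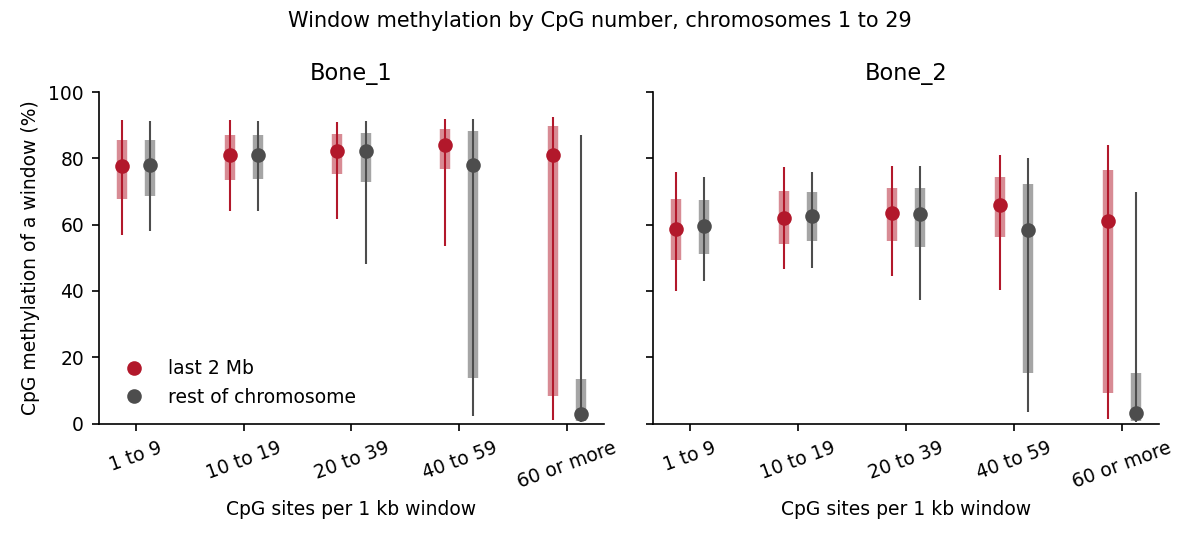
Methylation level (percent, vertical axis) of 1 kb windows by class of CpG sites per window (horizontal axis), for the last 2 Mb (red) and the rest of the chromosome (grey), in Bone_1 and Bone_2; points are medians, thick bars span the middle quartiles of windows and thin lines the 10th to 90th percentile. The medians lie close together up to 39 CpG sites and part from 40 upwards, reaching 80.9% at the ends against 2.78% in the rest in Bone_1 with 60 or more CpG sites.

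Medians of the CpG number classes, with the rest not weighted within a class, differed less than the means from 20 to 59 CpG sites and more above. With 20 to 39 CpG sites the median was 82.4% at the ends and 82.2% in the rest in Bone_1, and 63.5% and 63.2% in Bone_2. The median of windows with 40 to 59 CpG sites was 84.0% at the ends and 77.9% in the rest in Bone_1, and 65.9% and 58.4% in Bone_2. In CpG-dense windows the median was 80.9% at the ends (n = 3491 windows) and 2.78% in the rest (n = 17526) in Bone_1, and 61.0% and 3.31% in Bone_2. The median CpG-dense window was thus methylated at the ends and unmethylated in the rest, of which the part next to the ends was closer to them, as given with distance below. This did not hold on every chromosome, since on chromosomes 1, 7, 9, 13, 27 and 28 most CpG-dense end windows were under 20% in both samples (56.5% to 92.9%). The first 2 Mb of the autosomes, on the side of the centromere, lay between, with medians of 9.97% and 9.71% over 715 CpG-dense windows.

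CpG-dense windows fell into 3 states. At the ends, 1770 of the 3491 were over 60% in both samples (50.7%), 1059 were under 20% in both (30.3%) and the other 662 were neither. In the rest 12.9% were methylated and 76.7% unmethylated by these limits, and in the first 2 Mb 27.1% and 56.4%. Per Mb, the ends held 30.5 methylated and 18.3 unmethylated CpG-dense windows, against 0.930 and 5.53 in the rest, that is 32.8 times and 3.30 times as many. Unmethylated CpG-dense windows, the state usual for CpG island promoters, were therefore more frequent at the ends too, though by a smaller factor than methylated ones. The ends held 43.9% of all methylated CpG-dense windows of the autosomes and 7.31% of the unmethylated ones, where they held 16.6% of all CpG-dense windows.

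**Figure D2:**
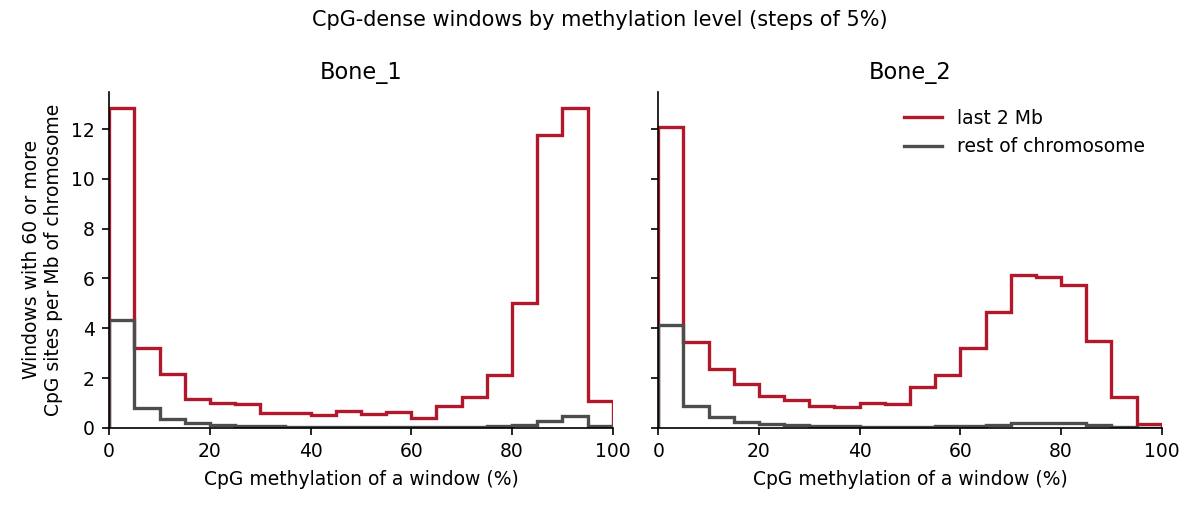
Number of CpG-dense windows per Mb of chromosome (vertical axis) by methylation level in steps of 5% (horizontal axis), for the last 2 Mb (red) and the rest (grey), in each sample. Both regions have a peak near 0% and another at high levels, which is the far smaller one in the rest, and the median of methylated end windows was 89.4% in Bone_1 and 76.2% in Bone_2.

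The methylated windows of the ends, chosen by the same limit as those elsewhere, were about as methylated. Their median level was 89.4% in Bone_1 and 76.2% in Bone_2, close to the 90.7% and 77.0% of methylated CpG-dense windows in the rest. The unmethylated ones had medians of 2.49% and 2.58% at the ends against 1.38% and 1.63% in the rest. The methylated windows at the ends were less dense than the unmethylated ones, with a median of 67 against 97 CpG sites. Median depth was 25.2 and 5.29 calls per CpG site in the methylated windows and 17.4 and 4.49 in the unmethylated ones, in Bone_1 and Bone_2. The part of depth in this difference was not tested, and among windows with 1000 to 2500 calls in Bone_1 and 200 to 600 in Bone_2 the methylated share was 57.3% at the ends and 16.3% in the rest.

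The share of methylated windows fell as the CpG number rose. From 40 CpG sites upwards, 62.3% of 12730 end windows were over 60% in both samples, from 80 upwards 23.1% of 1140, and from 100 upwards 9.84% of 610. The rest stood at 33.8%, 5.93% and 3.43% by the same limits, so the ends were higher at each of them. The densest windows of the ends were thus mostly unmethylated, with 83.0% of those with at least 100 CpG sites under 20% in both samples.

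Sequence features of the windows differed between the states. Neighbouring CpG sites lay a median of 10 bp apart in methylated and 6.5 bp apart in unmethylated CpG-dense windows of the ends. The base after a CpG was G or C at a median of 69.2% of cytosines in the methylated and 79.2% in the unmethylated windows. A regular spacing, as tandem repeats with a CpG in each unit would give, was rare by the measure used, which was not checked on known repeats. The commonest spacing between 6 and 300 bp joined a median of 16.7% of the sites of a methylated window and 20.5% of those of an unmethylated one, and joined over 50% of the sites in 1.30% of the methylated and in none of the 1059 unmethylated windows. In the rest, methylated and unmethylated CpG-dense windows differed likewise, with spacings of 9.5 and 7 bp and G or C next at 69.3% and 76.2%. A spacing that joined over 50% of the sites was found in 2.17% and 0.0223% of them. The states were not compared at equal CpG number. No sequence is shown, since no genome of the build of the counts was at hand.

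The base after the CpG made little difference to the level at the ends. Cytosines followed, after the G, by A, C, G and T were at 76.1%, 74.9%, 74.1% and 75.7% in Bone_1 and at 60.1%, 62.7%, 60.6% and 58.7% in Bone_2. The order of the 4 contexts differed between the samples, with A highest in Bone_1 and C highest in Bone_2. CGG made up 32.6% of CpG cytosines at the ends and 26.7% in the rest, and CGA 17.7% and 24.5%.

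With distance from the end, the excess of methylation was greatest between 0.5 and 1.5 Mb. Each step of 0.5 Mb was set against windows more than 20 Mb from the end at equal CpG number. The CpG sites per window were also highest between 0.5 and 1.5 Mb. Each step is weighted to its own CpG numbers, and the excess of the ends over the rest was largest in dense windows. Dense windows therefore count for more in CpG-rich steps. The part of this weighting in the profile was not tested, so the profile does not separate position from CpG number. The step from 0 to 0.5 Mb was 8.54 percentage points higher in Bone_1 and 6.53 higher in Bone_2. The next step rose to 13.2 and 10.1, and that from 1 to 1.5 Mb was at 13.2 and 9.71. From 1.5 to 2 Mb it was 9.37 and 7.19. The excess did not stop at 2 Mb, as it was 7.72 and 4.85 from 2 to 2.5 Mb, 8.06 and 5.48 from 2.5 to 3 Mb and 2.44 and 1.44 from 4.5 to 5 Mb. On either side of the limit, the windows from 1.9 to 2 Mb were 8.20 and 6.01 above the distant windows and those from 2 to 2.1 Mb 7.41 and 4.67. No step in level was thus seen at the limit.

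**Figure D3:**
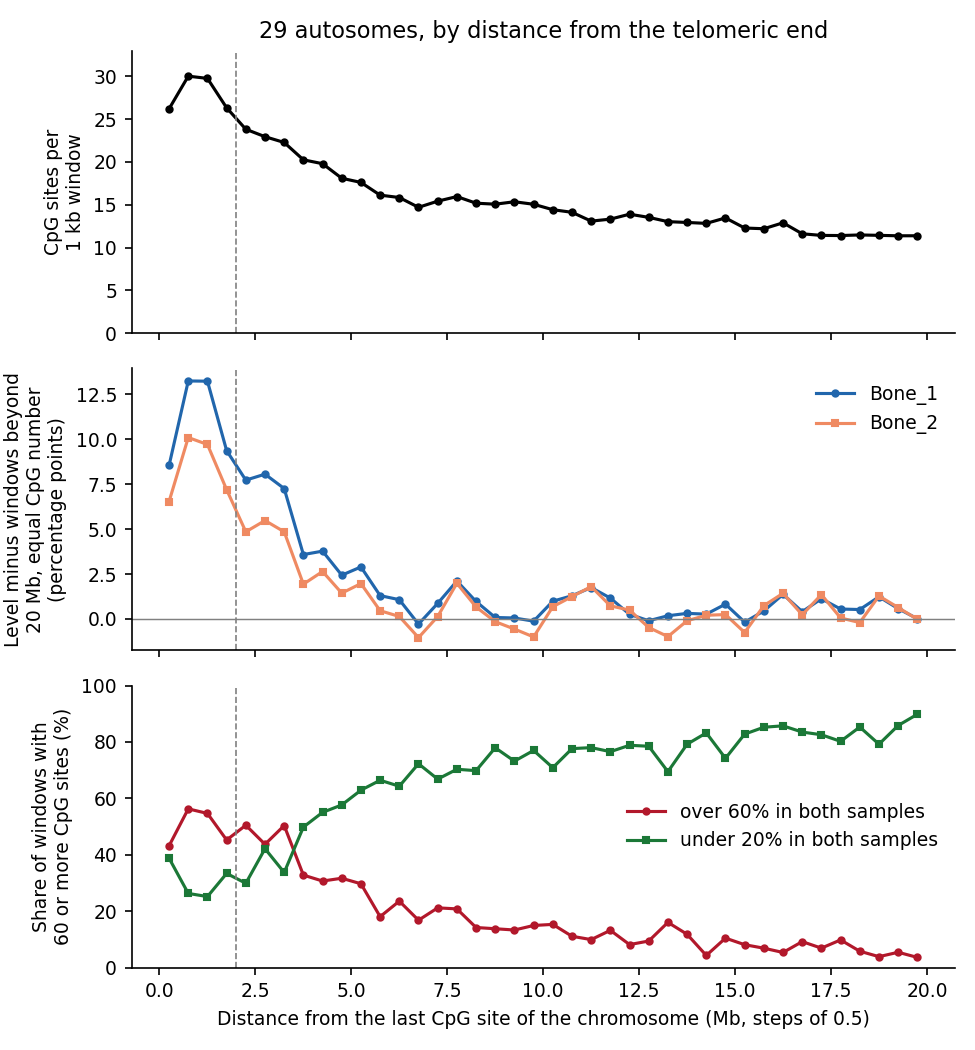
CpG sites per 1 kb window (top), level minus that of windows beyond 20 Mb at equal CpG number in percentage points (middle, both samples) and the shares of CpG-dense windows over 60% and under 20% in both samples (bottom, percent), by distance from the last CpG site in steps of 0.5 Mb; the dashed line marks 2 Mb. The difference peaks between 0.5 and 1.5 Mb, as do the CpG sites per window, and reaches 13.2 percentage points in Bone_1. Each step is weighted to its own CpG numbers, and the part of this weighting in the peak was not tested. The difference is lower but above 0 in both samples past the line, up to 5 Mb.

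The state of CpG-dense windows did not change at the 2 Mb limit either. The share over 60% in both samples was 43.2% from 0 to 0.5 Mb, 56.3% from 0.5 to 1 Mb, 54.7% from 1 to 1.5 Mb and 45.3% from 1.5 to 2 Mb. Past the limit it was 50.5% from 2 to 2.5 Mb, 43.8% from 2.5 to 3 Mb and 50.4% from 3 to 3.5 Mb, within the range of the steps inside it. It was 32.8% from 3.5 to 4 Mb, 31.7% from 4.5 to 5 Mb and 3.70% from 19.5 to 20 Mb. Up to 5 Mb, the frequency of CpG-dense windows fell more sharply than this share. The frequency was 8.19% of windows between 0.5 and 1 Mb, 4.83% between 1.5 and 2 Mb and 1.52% between 4.5 and 5 Mb. Farther in, the share fell more sharply, as the frequency was 0.857% between 19.5 and 20 Mb.

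The outermost 0.1 Mb was lower than what lay next to it. Its mean level was 72.5% in Bone_1 and 56.1% in Bone_2, which is 2.5 and 0.78 percentage points above distant windows of equal CpG number. Over all its calls, its depth was 28.7 and 15.1 calls per CpG site, the highest of the end region, but a few very deep windows weigh in these values. The median window had 14.9 calls per CpG site in Bone_1 within 50 kb of the end and 16.6 from 50 to 100 kb, against 17.3 to 18.0 farther in, and 12.5 and 11.8 in Bone_2, against 10.8 to 11.7. The part of depth in the lower level was not tested. The last window with enough calls on each chromosome ranged from 35.6% to 94.9% in Bone_1 with a median of 81.3%, and from 0% to 88.6% in Bone_2 with a median of 58.3%. These 29 windows lay between 252 and 826367 bp from the last CpG, the farthest being on chromosome 9, where only 852 windows were kept.

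The chromosomes differed widely. The mean end level over both samples was highest on chromosome 10, at 73.7%, followed by chromosomes 14 and 19 at 73.0% and 71.6%. It was lowest on chromosome 15, at 60.9%, chromosome 27, at 63.5%, and chromosome 13, at 66.1%. The order of levels was not the order of differences at equal CpG number. These were largest on chromosome 17 (18.7 percentage points in Bone_1 and 15.8 in Bone_2), chromosome 6 (11.8 and 11.4) and chromosome 3 (12.6 and 9.40). They were lowest on chromosome 27 (-4.05 and -4.35), chromosome 15 (-1.87 and -4.45) and chromosome 13 (-2.42 and -2.46).

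The difference was above 0 in both samples on 25 of 29 chromosomes and below 0 in both on those 3, while chromosome 1 stood at 0.22 in Bone_1 and -1.02 in Bone_2. The share of windows under 20% at equal CpG number was lower at the end on 29 of 29 chromosomes in each sample. Among windows with at least 40 CpG sites, the level was higher at the end on 28 of 29 chromosomes in Bone_1 and on 29 of 29 in Bone_2, the exception being chromosome 28, at -0.58. Chromosomes of a library are not replicates, so these counts carry no test. Leaving out each chromosome in turn kept the mean difference between 5.86 and 6.63 percentage points, the lowest value being without chromosome 17.

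**Figure D4:**
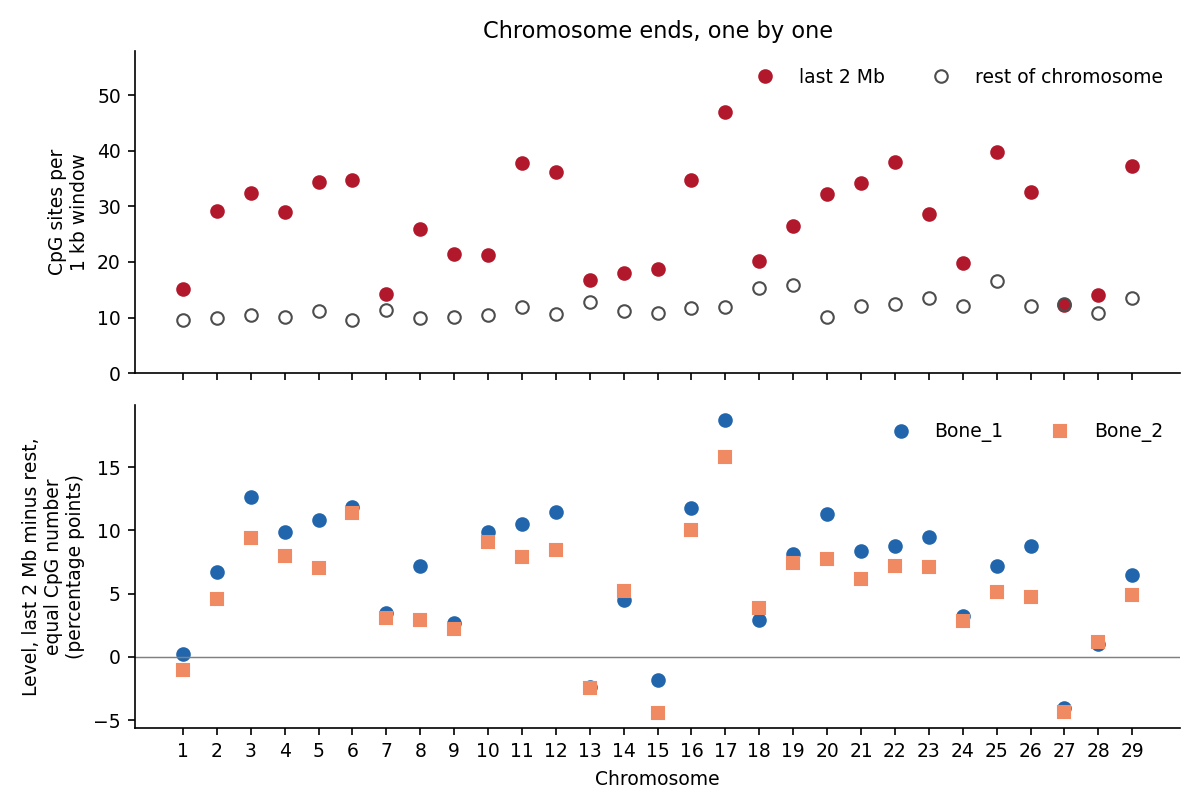
CpG sites per 1 kb window in the last 2 Mb (filled) and the rest (open) of each of chromosomes 1 to 29 (top), and the level of the last 2 Mb minus that of the rest at equal CpG number, in percentage points, in Bone_1 (circles) and Bone_2 (squares) (bottom). Chromosome 17 has the most CpG sites and the largest difference (18.7 and 15.8), and chromosomes 13, 15 and 27 lie below 0 in both samples.

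Ends with more CpG sites per window had the larger differences. Over the 29 chromosomes, CpG sites per end window went with the difference at equal CpG number with Spearman's rho of 0.76 in Bone_1 and 0.70 in Bone_2, and with the mean end level itself with rho of -0.21 and 0.07. These are descriptions over chromosomes measured in the same libraries. The difference is weighted to the CpG numbers of each end and was largest in dense windows, so dense windows count for more at CpG-rich ends. The part of this weighting was not tested. From 40 CpG sites upwards, the difference in Bone_1 was 40.1 on chromosome 10, with 21.3 CpG sites per end window. It was 30.1 on chromosome 17, with 47.0, and 14.2 on chromosome 25, with 39.8. Chromosome 17 illustrates the upper end, with 47.0 CpG sites per window, 94 genes in the gene table and 440 CpG-dense windows, of which 248 were methylated and 110 unmethylated. Its last named genes were RTN4R, a receptor for inhibitors of axon growth, PRODH, which breaks down proline, and DGCR6L. Chromosome 27 had 12.2 CpG sites per window, 1 gene and 3 CpG-dense windows, of which 1 was methylated. The end of chromosome 15, the lowest in mean level, was at 69.9% in Bone_1 and 52.0% in Bone_2.

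The methylated share of CpG-dense windows was above that of the rest on 28 of 29 chromosomes. It reached 61.6% on chromosome 12 (109 of 177 windows) and 60.5% on chromosome 25 (155 of 256). On chromosome 28, 0 of 14 CpG-dense end windows were methylated and 13 were unmethylated. Its end differed from the rest by 1.01 percentage points in Bone_1 and 1.15 in Bone_2 at equal CpG number.

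Runs of methylated dense windows were more frequent per Mb at the ends than elsewhere, as were the windows that form them (136.7 per Mb against 6.13), and clustering beyond that frequency was not tested. Consecutive windows with at least 40 CpG sites and over 60% in both samples formed 4251 runs, 73.3 per Mb against 4.56 in the rest. Of these, 266 were 5 windows or longer, 4.59 per Mb against 0.0592, and 39 were 10 windows or longer, against 14 in the whole rest. The longest spanned 35 kb on chromosome 20, from position 71277001 to 71312000, with 2075 CpG sites, at 90.6% in Bone_1 (90.3 to 90.8%) and 83.8% in Bone_2 (83.1 to 84.5%). The next were 21 kb on chromosome 12 (85229001 to 85250000) at 90.7% and 77.3%, and 19 kb on chromosome 25 (41430001 to 41449000) at 90.8% and 79.4%. The longest in the rest had 17 windows.

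The level was high at single CpG sites along the chromosome 20 run. Of its 1828 sites with at least 10 calls in Bone_1, 88.0% were over 80% and 98.6% over 60%, with a median of 92.3%. In Bone_2 only 184 sites had that depth, of which 58.7% were over 80%, with a median of 87.1%. None was under 20% in either sample. The 30 kb on both sides averaged 47.0 CpG sites per window, 76.5% in Bone_1 and 60.9% in Bone_2, with medians of 83.6% and 63.0%. The run was chosen for its level, so its excess over these flanks is a description.

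**Figure D5:**
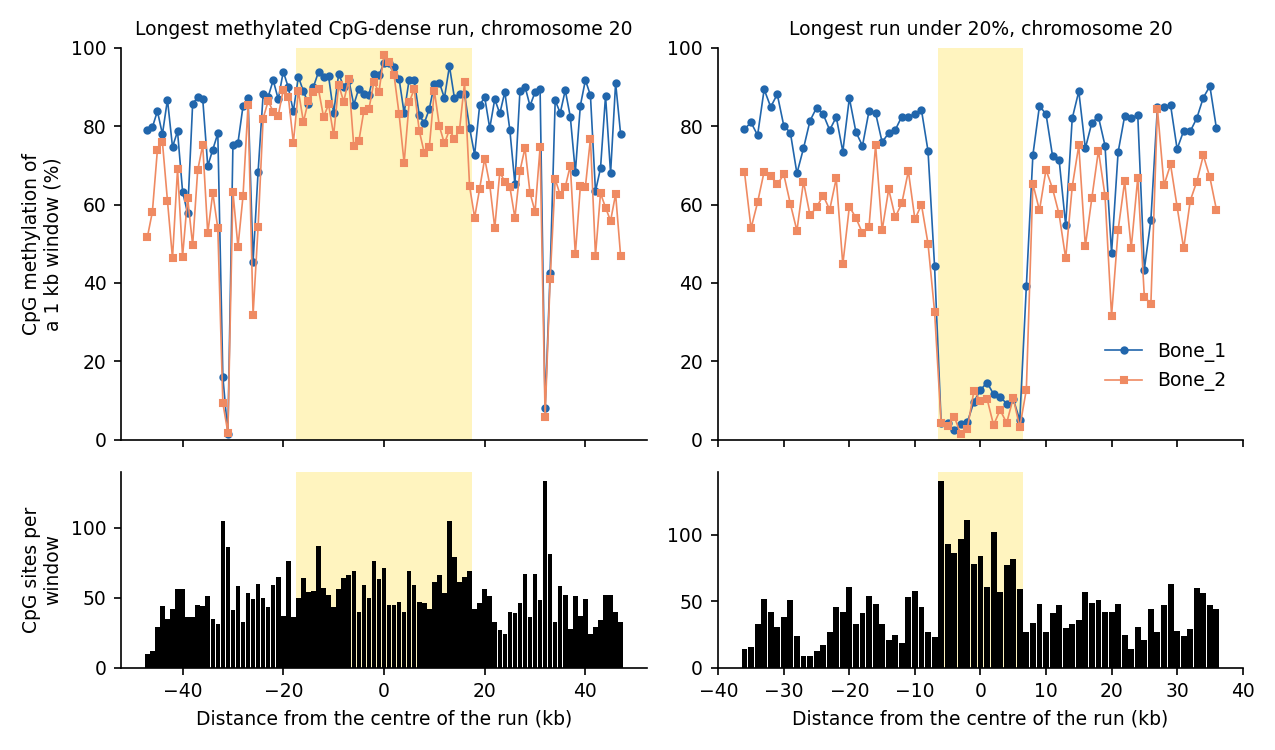
Methylation level (percent, top) and number of CpG sites (bottom) of 1 kb windows along the longest methylated dense run (left) and the longest run under 20% (right), both on chromosome 20, by distance in kb from the centre of each run, in Bone_1 and Bone_2; shading marks the run. The methylated run of 35 kb is at 90.6% and 83.8%, and the run under 20% of 13 kb is at 7.46% and 5.62% between methylated flanks.

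Windows under 20% in both samples formed 967 runs at the ends, 16.7 per Mb against 7.46 in the rest. Their windows held 82.4 CpG sites on average against 56.8 in the rest. The longest was 13 kb on chromosome 20 (70777001 to 70790000), with 1127 CpG sites at 7.46% in Bone_1 (7.06 to 7.87%) and 5.62% in Bone_2 (5.09 to 6.20%). It was followed by 11 kb on the same chromosome (70033001 to 70044000) at 11.6% and 7.55%, and by 10 kb on chromosome 12 (86016001 to 86026000) at 8.19% and 7.51%. Broad unmethylated stretches were thus present at the ends as well. Those of 5 windows or more numbered 17, at 0.293 per Mb against 0.161 in the rest. The windows that form the runs were themselves more frequent at the ends, at 26.4 per Mb against 12.7. Clustering beyond that frequency was not tested. The longest run in the rest, of 23 windows, was longer than any at the ends. Positions are those of the counts, for which the submitters' processing notes name ARS-UCD1.2. The genes at these positions were not analysed here.

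Most end windows differed between the samples, and Bone_1 was nearly always the higher. By the two-sided Fisher's exact test with Benjamini-Hochberg adjustment over all autosomal windows, 42710 of the 53160 end windows differed (80.3%), against 66.2% of all autosomal windows. Higher in Bone_1 were 41822 end windows, 78.7% against 65.2% of all, and higher in Bone_2 were 888, 1.67% against 1.01%. This test compares 2 libraries and not conditions. The end windows had more calls than others. Among windows with 200 to 300 calls in each sample, which are 2596 of the end windows with a mean of 18.3 CpG sites and so leave out most dense ones, 86.1% differed at the ends and 85.2% in the rest. By CpG number, 87.6% of end windows with 40 to 59 CpG sites differed against 73.3% in the rest. Of CpG-dense windows, 69.3% differed at the ends against 38.9%. Within each class of CpG number, however, the share of windows higher in Bone_2 was smaller at the ends. Below 20 CpG sites the shares lay close together. With 20 to 39 CpG sites, 250 of 18184 end windows were higher in Bone_2, against 4314 of 170967 in the rest. With 40 to 59 they were 212 of 9239 against 2721 of 26623, and in CpG-dense windows 297 of 3491 against 2740 of 17526. Tested against the common odds ratio of 2.31 between the samples instead of 1, 13502 end windows differed (25.4%, against 13.9% of all). Of these, 7640 were farther apart than that odds ratio (14.4% of end windows, against 6.98% of all) and 5862 were closer or reversed, against 6.88% of all. With 200 to 300 calls in each sample, 23.0% at the ends and 20.5% in the rest differed from the common odds ratio. By CpG number the ends were not above the rest throughout in this test, with 29.6% at the ends and 30.9% in the rest for 20 to 39 CpG sites, 37.3% and 45.6% for 40 to 59, and 43.6% and 41.7% in CpG-dense windows.

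The mean difference between the samples was wider at the ends than in the rest at equal CpG number. Bone_1 exceeded Bone_2 by 15.9 percentage points at the ends and by 14.2 in the weighted rest, a difference of 1.69, for which 2 libraries give no spread. By means, the widening was largest in the dense windows. There Bone_1 exceeded Bone_2 by 15.0 percentage points at the ends and 9.99 in the weighted rest with 40 to 59 CpG sites. In CpG-dense windows it did so by 8.54 and 2.44. With 20 to 39 CpG sites, a class of 34.2% of end windows, the values were 16.4 and 15.3. The gap between the median levels of the samples was 18.98 percentage points at the ends and 18.40 in the rest with 1 to 9 CpG sites, and 18.9 and 18.5 with 10 to 19. It was narrower at the ends with 20 to 39 (18.8 and 19.1) and with 40 to 59 CpG sites (18.1 and 19.6), and stood at 19.9 and -0.53 in CpG-dense windows, whose median window was unmethylated in the rest. Weighting windows by calls reduced the 1.69 to 0.286. It was 0.181 with 50 to 300 calls per window, and it turned to -0.63 without matching on CpG number.

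In 100 kb bins, 568 of the 572 end bins were lower in Bone_2. Bins under 60% numbered 20 in Bone_1, of which 4 lay on chromosome 15, and 307 in Bone_2. Bin levels ranged from 47.3% to 91.6% in Bone_1 and from 35.6% to 80.6% in Bone_2. Over the end windows, the levels of the samples went together with Pearson's r of 0.84 and Spearman's rho of 0.75, a description across windows. Over the windows of the rest these were 0.76 and 0.67, without matching on CpG number.

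The window that was most reduced in Bone_2, among those with at least 5 CpG sites, lay on chromosome 10 (103307001 to 103308000, 89 CpG sites), less than 1 kb from the last CpG. It was methylated at 81.3% of 150 calls in Bone_1 and at 0 of 60 calls in Bone_2, which by 3 calls allows up to 5%, the Wilson limit being 6.02% (adjusted p = 2.18e-28, Fisher's exact test). The next, on chromosome 6 (117801001 to 117802000, 72 CpG sites), was at 76.5% of 34 calls against 4.76% of 21 (adjusted p = 8.81e-07, Fisher's exact test), 4.33 kb from the end. With fewer than 2 calls per CpG site in each sample, few reads lie behind either of these values. The other 3, a pair on chromosome 1 and the third on chromosome 9, had 20 calls in Bone_1 and 5 to 12 CpG sites, and differed by 58.1 to 63.2 percentage points.

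The window most reduced in Bone_1 lay on chromosome 29 (49549001 to 49550000, 79 CpG sites), at 17.2% of 746 calls in Bone_1 and 67.6% of 139 calls in Bone_2 (59.5 to 74.8%), with an adjusted p of 7.6e-29 by Fisher's exact test. A window on chromosome 4 (119898001 to 119899000, 24 CpG sites) was at 5.03% of 358 calls against 47.8% of 203 calls. Another on chromosome 19 (61719001 to 61720000, 60 CpG sites) was at 4.69% of 405 against 43.9% of 221. The remaining pair were on chromosomes 19 and 1. The former (62446001 to 62447000, 144 CpG sites) was at 0 of 32 calls in Bone_1, which by 3 calls allows up to 9.38%, against 45.5% of 66. It had fewer calls than CpG sites in each sample, so few reads lie behind these values. The latter (157292001 to 157293000) was at 34.9% of 172 against 74.8% of 262. These windows ran against the general difference between the samples. Of all CpG-dense windows, 297 of 3491 at the ends and 2740 of 17526 in the rest were higher in Bone_2 by this test, which is 12.3% and 40.1% of those that differed.

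Windows of extreme depth were frequent at the ends. Of the 3609 autosomal windows with the most calls in either sample, 409 lay there (11.3%, where the ends hold 2.54% of windows and 6.06% of CpG sites), on 26 chromosomes, and 200 of them were over 60% in both samples. Windows with at least 40 CpG sites, which gather more calls, made up 23.9% of the end windows and 2.17% of the rest. The ends held 22.4% of all such autosomal windows, and an excess of depth beyond CpG number was not tested. The deepest end window was on chromosome 16, 3.92 kb from the last CpG, with 101286 calls in Bone_1 and 105423 in Bone_2 at 29 CpG sites, and it was at 80.6% and 60.2%. Without these windows, the difference at equal CpG number was 6.12 percentage points and the methylated share of CpG-dense windows 51.5%.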

How the data were processed

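WGBS of 2 bone samples was used. DNA with added unmethylated lambda DNA was sheared, bisulfite converted and sequenced in paired 150 bp reads. The submitters' processing notes name FastQC 0.11.5, Trim Galore 0.4.5, Bowtie2, Bismark 0.19.0 and ARS-UCD1.2, while the paper's methods give UMD3.1.1 and other versions, and the files name no build. After removal of duplicates, the authors deposited raw counts, namely how many calls were methylated and how many were not for every CpG cytosine on either strand. A call needs a mapped read, so repeats and collapsed copies can distort depth and level. Lambda DNA was not analysed here, so conversion was not checked.

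Strands were summed and 1 kb windows with at least 20 calls in each sample were kept. Total calls were 582241763 in Bone_1 and 440334436 in Bone_2, of which 445684877 and 389385549 were autosomal. The rest was standardised to the chromosome and CpG number of the end windows. Differences were tested over samples by an exact sign-flip permutation test, and windows by Fisher's exact test with Benjamini-Hochberg adjustment at 0.05. In simulated data from 20000 windows of chromosome 1 with 200 changed, the Fisher test recovered 73% at a change of 30 percentage points and 98.5% at 50, and called 5 and 6 unchanged windows in these runs. Named windows are the 5 with at least 5 CpG sites and the largest difference past the threshold in each direction, and the 3 longest runs under 20%; the longest methylated runs and the deepest window were added after their values were seen. Named chromosomes are the 3 highest and 3 lowest. Others were named for single values. The regions, classes and lists were chosen with earlier results of these data known. CpG-dense states were defined after the data were seen. Promoters, planned with marker genes, were not analysed here, since the gene table is of ARS-UCD2.0. It was used for gene names, order and density within its own coordinates. Alternatives are given at the end. The work was done in Python 3.11.15 with scipy 1.17.1 for tests, pandas 2.3.3 with pyarrow 21.0.0 for tables, numpy 2.4.6 and numba 0.67.0 for sums, and matplotlib 3.10.9 for plots.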

Additional observations from a re-analysis of the deposited data

How the results depend on the processing

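The higher level of the ends at equal CpG number kept its sign in both samples under every alternative tried, from 0.325 percentage points with 50 to 300 calls per window, which leaves out most dense windows by construction, to 11.2 with 5 kb windows. Leaving out either sample gave 5.44 to 7.13 for this level, -8.86 to -8.59 for the share under 20%, 1.75 to 6.11 for the share over 80% and 60.5 to 76.4% for the mean level. Over the other alternatives with matching, the share under 20% ran from -13.5 (rest without the first 2 Mb and the 2 to 10 Mb next to the end) to -2.26 (under 40 CpG sites), and that over 80% from 0.872 (under 40 CpG sites) to 6.94 (5 kb windows), with 0.368 in Bone_2 for ends of 5 Mb. Without matching on CpG number, the share under 20% changed sign to 1.54, and the wider difference between the samples at the ends to -0.63. That difference of 1.69 was 1.25 with ends of 1 Mb, 1.88 with 5 Mb, 1.77 with 50 calls, 5.04 with 5 kb windows, 0.286 weighted by calls, 0.181 with 50 to 300 calls, 1.83 with matching over all autosomes, 2.73 without the first 2 Mb and the 2 to 10 Mb next to the end, and 0.537 under 40 CpG sites. It needs both samples, so it has no value without either. The cause of these shifts was not tested.

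The ratio of CpG sites per window was 2.43 with ends of 1 Mb, 2.18 with 5 Mb, 2.24 with 50 calls and 2.70 with 5 kb windows. Windows that differed numbered 13502 against the common odds ratio, 17979 with a difference of at least 20 percentage points, 19970 with ends of 1 Mb and 109216 with 5 Mb, the last pair from fewer and more windows tested. The methylated share of CpG-dense windows (50.7%), whose alternatives were chosen after seeing the data, was 62.3% from 40 and 23.1% from 80 CpG sites, 57.3% at 1000 to 2500 and 200 to 600 calls, 56.9% with a limit of over 50% in place of 60%, 37.8% with over 70%, and 51.0 to 58.6% in either sample alone. Depth limits single CpG sites of CpG-dense windows in Bone_2, with 5.15 calls per site against 22.7 in Bone_1. No pairing between groups was possible because there was only 1 group. Ends and rest were paired within each sample, and the sign-flip test used these differences of the 2 samples. The planned promoter alternatives were not run.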

Other observations

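The end of the X chromosome lay outside the regions described. In its last 2 Mb, 23 windows had at least 60 CpG sites, with medians of 14.9% in Bone_1 and 11.1% in Bone_2, and 13 of them (56.5%) were under 20% in both samples. In the rest of X, 541 such windows had medians of 33.1% and 25.3%, and 68 (12.6%) were under 20% in both. Those over 60% in both were 39.1% of the windows at the end of X and 11.1% in its rest. With 40 to 59 CpG sites, 65 windows at the end of X had medians of 86.5% and 65.6% and 69.2% were over 60% in both, against 44.1% and 37.8% and 36.7% over 597 windows of its rest. Over windows of any CpG number, the median level was 77.2% and 58.5% at the end of X, and 71.6% and 53.5% in its rest. The windows of X were not matched on CpG number, and those with at least 60 CpG sites averaged 94.4 at its end and 85.6 in its rest. These values carry no test.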
